A study of Mus musculus with 16 samples.

Results

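The genes described here are 8 genes of somatic hypermutation and of the repair pathways that act on its lesions: Ung, Apex1, Apex2, Neil1, Msh6, Exo1, Polh and Trex1. They were taken by symbol from a table of 23234 named genes, and all 8 were found and passed the filter on low values. Messenger RNA was measured in 16 libraries of mouse B cells from 6 sorted gates. All cells were C57BL/6 spleen B cells of the genotype Bcl6-YFP(KI/+) B1-8hi(KI/+), so every gate, controls included, carried the reporter at the Bcl6 locus and a knocked-in receptor for the hapten NP. Naive cells were given to wild-type CD45.1+ mice, NP-CGG in alum was injected intraperitoneally, and on day 10 the spleens of 9 recipients were pooled for sorting.

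Each gate held donor cells that bound NP, carried IgG1 and lacked CD138. LZ (n = 3) held light zone cells of the germinal centre (GC), which were CD38-negative, CD86-high and CXCR4-low. Fraction 2 (n = 2) and Fraction 3 (n = 3) were LZ cells high for Bcl6-YFP, with CD69 high in Fraction 2 and low in Fraction 3. The labels call the first recycling-prone and the second under selection. Fraction 5 (n = 3), Fraction 6 (n = 2) and Fraction 7 (n = 3) were CD38-positive and GL7-negative. Fraction 5, named pro-memory, had high Bcl6-YFP and high Efnb1. Fraction 6, named pre-memory, had low Bcl6-YFP with high Efnb1, and in Fraction 7, named mature memory, both were low. Whether the libraries of a gate come from separate pools is not stated in the labels. The p-values therefore reflect only how far these libraries spread, which may be technical.

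Somatic hypermutation starts when a deaminase turns cytosine into uracil in the antibody genes of a GC B cell. Uracil can be cut out by the base excision enzyme UNG, and the resulting abasic site is cleaved by an AP endonuclease. The mismatch can instead be bound by a complex that holds MSH6, after which EXO1 removes a stretch of one strand and the error-prone polymerase eta, made by Polh, fills the gap. GC B cells are known for running these repair routes in an error-prone way at their antibody genes, and the same enzymes serve ordinary replication and repair in dividing cells.

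The values are FPKM, fragments scaled to transcript length and to the number of mapped fragments, so levels of different genes can be compared. FPKM summed to between 416741 and 492578 per library, and 10133 to 10552 genes stood at 1 FPKM or more. Relative depth, read from the steps between low values, ranged from 0.922 to 1.21 with LZ library 1 set to 1. Absolute depth is unknown. GC B cell markers (7 genes) summed to between 593 and 814 FPKM in LZ and Fractions 2, 3 and 5, to 272 and 300 in Fraction 6 and to between 51.7 and 67.7 in Fraction 7. General B cell markers (6 genes) summed to at least 2308 FPKM in every library. T and NK cell markers (6 genes) summed to at most 1.97 FPKM. Erythroid markers (4 genes) summed to between 12.5 and 70.0 FPKM over all libraries, and to between 20.5 and 70.0 within Fraction 5. The part of these transcripts in the results was not tested. The CD138 gene Sdc1, which marks plasma cells, was at most 0.534 FPKM except in Fraction 7 libraries 2 and 3, with 4.44 and 4.51. In bulk RNA, fewer cells of a type and less RNA per cell cannot be told apart.

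RefSeq promoter windows (build GRCm38.p6, 250 bases before to 50 after a start) were matched by symbol for Ung, Polh, Msh6, Apex1, Neil1 and Trex1. Exo1 and Apex2 were not matched. The deposited values rest on another build, mm9, and no coordinates were carried between the builds. Windows of Msh6, Apex1 and Neil1 are shown because their mRNA differed in where it was lower among the CD38-positive gates. Msh6 and Apex1 were lower in Fraction 5 than in Fraction 3, and Neil1 stood near its Fraction 3 level there. Neil1 and also Msh6 were lower in Fraction 6 than in Fraction 5, and Apex1 was not. Each run ends at the base before the start, lies in no annotated exon and reads in the direction of the gene, with motif matches in capitals.
Msh6, chr17:87974800-87975049, plus strand: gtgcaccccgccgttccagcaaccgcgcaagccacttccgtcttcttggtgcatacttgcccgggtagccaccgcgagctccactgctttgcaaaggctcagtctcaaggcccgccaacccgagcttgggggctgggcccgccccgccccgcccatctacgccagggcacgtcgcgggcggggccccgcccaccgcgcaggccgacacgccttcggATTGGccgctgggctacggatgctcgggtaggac
Apex1, chr14:50924894-50924948, plus strand: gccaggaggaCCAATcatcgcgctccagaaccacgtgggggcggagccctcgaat
Neil1, chr9:57148306-57148555, minus strand: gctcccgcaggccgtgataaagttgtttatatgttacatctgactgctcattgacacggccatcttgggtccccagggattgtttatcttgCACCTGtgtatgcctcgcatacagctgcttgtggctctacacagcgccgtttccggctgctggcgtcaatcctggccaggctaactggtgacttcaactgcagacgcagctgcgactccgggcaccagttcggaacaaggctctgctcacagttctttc

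Both strands of each window were searched for 3 motifs: CCAAT, the E-box CAGGTG, and an E2F motif written as TTTCCCGC, TTTGGCGC, TTTCGCGC or TTTGCCGC. CCAAT is known from promoters of cell cycle genes, the E-box from genes bound by E proteins in B cells, and the E2F motif from genes of S phase. In the Msh6 run the capitals mark CCAAT on the opposite strand, in Apex1 CCAAT, and in Neil1 the E-box on the opposite strand. Within 50 bases after the start, and so outside the runs shown, the windows also held TTTCCCGC in Msh6, a further CCAAT in Apex1 and CAGGTG in Ung. None of the 3 motifs was found in the windows of Polh and Trex1. Of 32851 windows of 300 bases, 37.4% held CCAAT, 20.2% the E-box and 2.26% the E2F motif. These matches describe letters only.

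Ung encodes uracil-DNA glycosylase, which removes uracil from DNA. It stood at 24.6, 24.1 and 20.9 FPKM in LZ, 30.8 and 24.4 in Fraction 2, and 21.2, 20.04 and 19.7 in Fraction 3. It was at 7.05, 8.97 and 8.78 FPKM in Fraction 5, 5.64 and 6.79 in Fraction 6, and 3.03, 3.82 and 3.82 in Fraction 7. All 8 light zone libraries lay above all 8 CD38-positive libraries, and Fractions 5, 6 and 7 did not overlap with each other. In the order of means, Fraction 2 overlapped with LZ and LZ with Fraction 3. Lack of overlap is common between these small groups. Over 11266 genes tested it held for 44.1% between Fractions 5 and 3 and 47.9% between Fractions 6 and 5. Between Fractions 7 and 6 it held for 46.4%. Of the 8 genes it held for 5, 5 and 8 in these comparisons.

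Apex1 encodes the main AP endonuclease, which cuts DNA at abasic sites, and Apex2 a paralog with weaker endonuclease and strong exonuclease activity. Apex1 was at 24.9, 24.7 and 20.6 FPKM in LZ, 30.6 and 31.8 in Fraction 2 and 23.4, 20.99 and 18.4 in Fraction 3. In Fraction 5 it was at 9.22, 9.01 and 11.9 FPKM, in Fraction 6 at 11.2 and 12.01, and in Fraction 7 at 10.4, 6.72 and 8.35. Fraction 2 was highest without overlap, while Fractions 5, 6 and 7 each overlapped with the next in the order of means. In a GENCODE annotation of build GRCm38, exons of Pip4p1 on the opposite strand share 61.7% of the exon bases of Apex1. The library kit does not mark the strand, so reads of Apex1 and Pip4p1 may be mixed. The annotation behind the deposited values is unknown and may differ. Pip4p1, listed as Tmem55b, was at 27.7 to 49.8 FPKM over the 16 libraries.

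Apex2 was at 8.33, 7.36 and 6.98 FPKM in LZ, 4.93 and 7.29 in Fraction 2 and 7.07, 9.26 and 8.00 in Fraction 3. It was at 5.40, 5.88 and 7.09 FPKM in Fraction 5, 5.94 and 3.48 in Fraction 6 and 2.63, 2.61 and 2.20 in Fraction 7. Only Fraction 7 lay apart from its neighbour, and every other neighbouring pair in the order of means overlapped. The ratio of Apex1 to Apex2 FPKM was 5.27 ± 1.30 (SD, n = 2) in Fraction 2, 2.62 ± 0.592 (SD, n = 3) in Fraction 3 and 1.64 ± 0.0937 (SD, n = 3) in Fraction 5. In LZ, Fraction 6 and Fraction 7 the mean ratio was 3.10, 2.67 and 3.44. The ratio was lowest in Fraction 5, where its libraries (1.53 to 1.71) lay below those of every other gate, and it was given no test.

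Neil1 encodes a glycosylase that removes oxidised bases and was the most abundant of the 8 genes in every library. It was at 223, 205 and 266 FPKM in LZ, 166 and 151 in Fraction 2 and 262, 240.2 and 311 in Fraction 3. In Fraction 5 it was at 266, 233 and 322 FPKM, in Fraction 6 at 89.1 and 111, and in Fraction 7 at 42.3, 40.2 and 41.9. Fraction 5 overlapped with Fraction 3 and Fraction 3 with LZ, below which Fraction 2, Fraction 6 and Fraction 7 followed without overlap. Neil1 ranked between the 98.9th and 99.2th percentile of all named genes in Fraction 5 and between the 93.5th and 94.1th in Fraction 7. The mean ratio of Neil1 to Ung FPKM was 5.78 in Fraction 2, 13.4 in Fraction 3, 33.4 in Fraction 5 and 11.8 in Fraction 7.

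Msh6 encodes the subunit that recognises mismatches together with its partner. It was at 39.7, 42.1 and 41.3 FPKM in LZ, 46.8 and 43.2 in Fraction 2 and 43.0, 46.7 and 46.4 in Fraction 3. It was at 24.0, 30.9 and 28.5 FPKM in Fraction 5, 17.7 and 15.9 in Fraction 6 and 10.8, 11.8 and 8.97 in Fraction 7. Fractions 2 and 3 overlapped, and every other neighbouring pair of gates lay apart.

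Exo1 encodes the exonuclease that resects the mismatched strand and was the least abundant of the 8 genes in LZ and Fractions 3, 5, 6 and 7. It was at 6.78, 5.71 and 5.40 FPKM in LZ, 8.48 and 9.04 in Fraction 2 and 5.68, 5.95 and 4.94 in Fraction 3. In Fraction 5 it was at 1.74, 3.23 and 2.29 FPKM, in Fraction 6 at 0.739 and 0.983, and in Fraction 7 at 0.206, 0.572 and 0.272. Fraction 2 was highest, LZ and Fraction 3 overlapped, and Fractions 5, 6 and 7 followed without overlap. The mean of Fraction 7 was 6.34% of that of Fraction 3, the smallest such share among the 8 genes.

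Polh encodes polymerase eta, which makes most of the mutations at A and T bases. It was at 23.04, 30.8 and 25.8 FPKM in LZ, 29.3 and 32.0 in Fraction 2 and 33.2, 30.02 and 34.2 in Fraction 3. It was at 20.9, 29.7 and 22.1 FPKM in Fraction 5, 10.02 and 8.67 in Fraction 6 and 7.31, 6.74 and 5.14 in Fraction 7. Its 4 highest gates overlapped pairwise in the order Fraction 3, Fraction 2, LZ and Fraction 5, and the step from Fraction 5 to Fraction 6 was without overlap.

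Trex1 encodes a 3′ exonuclease that degrades DNA in the cytosol. It was at 25.01, 26.5 and 22.2 FPKM in LZ, 20.3 and 14.5 in Fraction 2 and 22.8, 20.8 and 32.1 in Fraction 3. It was at 20.4, 27.4 and 30.3 FPKM in Fraction 5, 19.5 and 26.2 in Fraction 6 and 14.9, 16.9 and 13.7 in Fraction 7. Every neighbouring pair of gates in the order of means overlapped. In the same GENCODE annotation of GRCm38, all exon bases of Trex1 also lie in exons of Atrip on the same strand. The split of reads between Trex1 and Atrip is therefore uncertain. Atrip was at 4.80 to 8.73 FPKM and did not pass the test over the 6 gates (limma's F test, adjusted p = 0.0905).

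**Figure D1:**
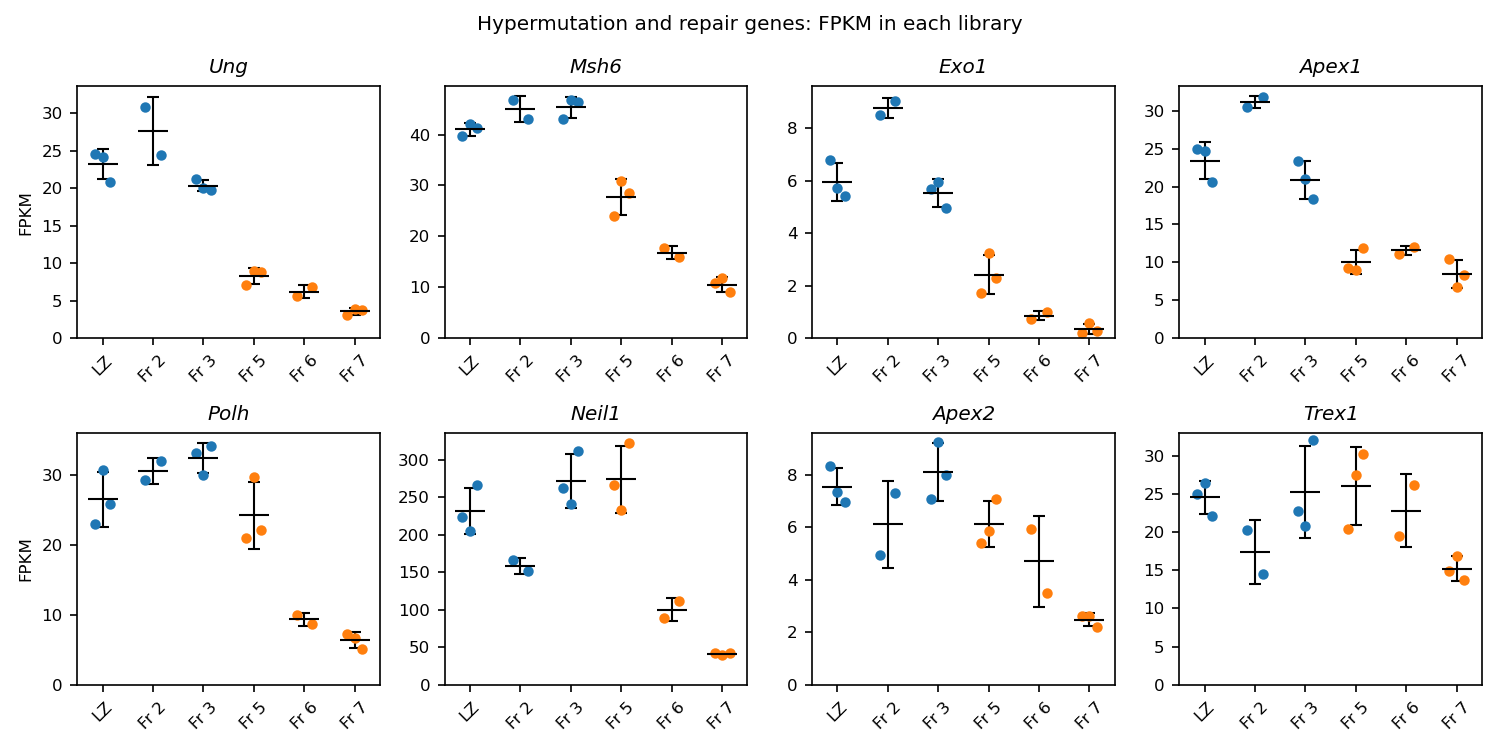
FPKM (vertical axes, from 0) of the 8 genes in each library of the 6 gates, with points for libraries and bars for the mean ± SD; blue points are light zone gates and orange points CD38-positive gates. Ung, Msh6, Exo1 and Apex1 are lower in all 8 CD38-positive libraries than in the light zone libraries, while Neil1 in Fraction 5 lies between 233 and 322 FPKM, within or above the light zone range. The share of all genes that split the 16 libraries in this way was not computed. Between Fraction 7 and LZ alone, 64.4% of all genes tested had no overlap.

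All 8 genes passed a test of any difference over the 6 gates, where 69.7% of the 11266 genes tested passed (limma's moderated F test, threshold of 0.05 on p adjusted over all genes). Adjusted p ran from 1.38e-09 for Ung to 0.0136 for Trex1. Without Fraction 7 library 3 the number of the 8 genes that passed was 7. In the comparisons that follow, a change is a difference of means on the log2(FPKM + 1) scale, given with its standard error (SE), and it understates the change of low genes such as Exo1. Comparisons that share a gate share its libraries.

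Fraction 2 against Fraction 3 asks how light zone cells called recycling-prone differ from those under selection. Base excision genes moved in both directions: Ung and Apex1 were higher in Fraction 2, as was the mismatch exonuclease gene Exo1, and Neil1 was lower. Neil1 stood at 158 ± 10.7 (SD, n = 2) against 271 ± 36.1 FPKM (SD, n = 3), a change of -0.76 ± 0.15 SE (limma, adjusted p = 0.00474). Exo1 stood at 8.76 ± 0.393 against 5.52 ± 0.523 FPKM (0.58 ± 0.17 SE, limma, adjusted p = 0.0358). Apex1 stood at 31.2 ± 0.844 against 20.9 ± 2.50 FPKM (0.56 ± 0.16 SE, limma, adjusted p = 0.0294). Ung changed by 0.42 ± 0.13 SE (limma, adjusted p = 0.0469).

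The 3 of 8 genes higher stand beside 9.17% of all genes tested, and the 1 of 8 lower beside 6.45%. Msh6 and Polh did not pass, with changes of -0.01 (95% interval -0.26 to 0.23) and -0.08 (-0.43 to 0.27). Apex2 (-0.37, adjusted p = 0.208) and Trex1 (-0.51, adjusted p = 0.115) did not pass either. None of the 4 calls held in each of the 5 fits that left out 1 library: Neil1 kept its call in 4, with an adjusted p of 0.0528 without Fraction 2 library 2, Ung and Apex1 in 1 each and Exo1 in 0. Over all genes 1033 were higher and 727 lower, which quantile normalization turned into 866 and 1041; after it Ung no longer passed (adjusted p = 0.0776). With a pseudocount of 0.1 Exo1 (adjusted p = 0.161) and Ung (adjusted p = 0.0619) did not pass, and without a filter Neil1 alone did.

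Fraction 5 against Fraction 3 compares the pro-memory gate, in which the reporter was high, with light zone cells called under selection. The changes of the 8 genes were graded, from -1.21 for Ung to 0.05 for Trex1. Ung was lower by the largest step, at 8.27 ± 1.06 (SD, n = 3) against 20.3 ± 0.758 FPKM (SD, n = 3), a change of -1.21 ± 0.12 SE (limma, adjusted p = 1.53e-05). Apex1 changed by -0.99 ± 0.14 SE (limma, adjusted p = 0.000186), to 48.0% of the Fraction 3 mean. The mismatch repair genes Exo1 and Msh6 changed by -0.95 ± 0.15 SE (limma, adjusted p = 0.000502) and -0.69 ± 0.10 SE (limma, adjusted p = 0.000226).

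Neil1 stood at 273 ± 45.2 against 271 ± 36.1 FPKM, and its change of 0.01 did not pass (95% interval -0.28 to 0.29, limma, adjusted p = 0.974). Trex1 likewise did not pass, with a change of 0.05 (-0.35 to 0.44, limma, adjusted p = 0.876). Apex2 changed by -0.36 (-0.72 to 0.01, limma, adjusted p = 0.130). Polh was lower, at 24.3 ± 4.76 against 32.5 ± 2.18 FPKM (-0.42 ± 0.14 SE, limma, adjusted p = 0.0418), but 5 of the 6 fits that left out 1 library lost this call, with an adjusted p of up to 0.162, and so did quantile normalization (adjusted p = 0.128). Ung, Apex1, Exo1 and Msh6 kept their calls in all 6 such fits.

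The 5 of 8 genes lower stand beside 19.5% of all genes tested. The 2197 genes lower and 1125 higher became 1664 and 1675 after quantile normalization. A list of 24 S phase genes, none of them among the 8, moved with Ung, Apex1, Exo1 and Msh6: 23 were lower and 0 higher, with a median change of -1.09 against -0.03 over all genes. Their summed FPKM in Fraction 5 was 46.5% of that in Fraction 3, where Ung was at 40.7%, Exo1 at 43.8% and Msh6 at 61.2%. The GC B cell markers were at 95.8%, where Neil1 was at 100.9% and Polh at 74.7%. By gene, 2 of the 7 GC B cell markers were lower and 0 higher. Bcl6 is 1 of the 7, and both gates were sorted high for its reporter. The part of cell division in these differences was not tested.

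**Figure D2:**
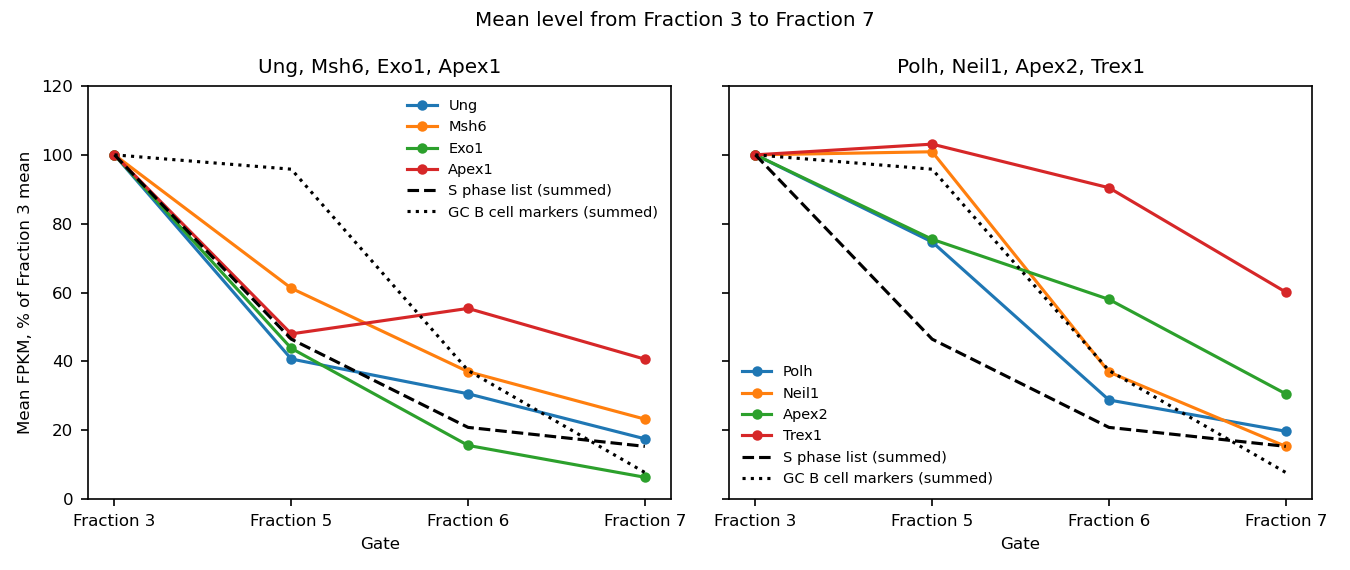
Mean FPKM of each gene as a percentage of its Fraction 3 mean (vertical axis) in Fractions 3, 5, 6 and 7 (horizontal axis), with the summed S phase list dashed and the summed GC B cell markers dotted in both panels. At Fraction 5 Ung, Exo1 and Apex1 are at 40.7%, 43.8% and 48.0% and the S phase list at 46.5%, but at Fraction 6 they are at 30.6%, 15.6% and 55.4% against 20.8% and at Fraction 7 at 17.5%, 6.34% and 40.6% against 15.3%. Neil1 is at 100.9%, 36.9% and 15.3% in Fractions 5, 6 and 7, against 95.8%, 37.4% and 7.73% for the GC markers.

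Fraction 5 was also set against Fraction 2, a comparison that shares its Fraction 5 libraries with the one above. Ung (-1.62 ± 0.13 SE, limma, adjusted p = 8.52e-07), Apex1 (-1.55 ± 0.16 SE), Exo1 (-1.54 ± 0.17 SE) and Msh6 (-0.68 ± 0.11 SE) were lower. Neil1 was higher by 0.77 ± 0.15 SE (limma, adjusted p = 0.000811) and Trex1 by 0.56 ± 0.21 SE (limma, adjusted p = 0.0424). Polh changed by -0.34 (limma, adjusted p = 0.103) and Apex2 by 0.02 (95% interval -0.39 to 0.42). The 4 lower stand beside 27.1% of all genes tested and the 2 higher beside 16.6%. Trex1 lost its call in 3 of 5 fits that left out 1 library, with an adjusted p of up to 0.347, and the other 5 calls held in all 5. Over all genes the split of 1872 higher and 3056 lower became 2713 and 2479 after quantile normalization.

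Fraction 6 against Fraction 5 compares cells low and high for Bcl6-YFP among the Efnb1-high, CD38-positive cells. Neil1, Polh, Exo1 and Msh6 were lower in Fraction 6. The mean of Fraction 5 was 2.81 times that of Fraction 6 for Exo1, 2.73 times for Neil1 and 2.59 times for Polh. Neil1 stood at 100.01 ± 15.5 (SD, n = 2) against 273 ± 45.2 FPKM (SD, n = 3), a change of -1.44 ± 0.15 SE (limma, adjusted p = 1.55e-05). Polh stood at 9.35 ± 0.957 against 24.3 ± 4.76 FPKM (-1.27 ± 0.16 SE, limma, adjusted p = 8.85e-05). Exo1 changed by -0.86 ± 0.17 SE (limma, adjusted p = 0.00327), or by -1.36 with a pseudocount of 0.1, and Msh6 by -0.69 ± 0.11 SE (limma, adjusted p = 0.000707). In every library of Fraction 6 Exo1 was under 1 FPKM.

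The other 4 genes did not pass. Ung changed by -0.36 (95% interval -0.64 to -0.08, limma, adjusted p = 0.078), with no overlap between the gates, as for 47.9% of all genes tested. Apex1 changed by 0.20 (-0.14 to 0.54), Apex2 by -0.35 (-0.75 to 0.06) and Trex1 by -0.18 (-0.62 to 0.26). The 4 of 8 genes lower stand beside 10.4% of all genes tested, and they held in all 5 fits that left out 1 library. In a fit to the 2 gates alone Exo1 had an adjusted p of 0.0547. All 7 GC B cell markers were lower in Fraction 6, with a median change of -1.32, and 20 of 24 S phase genes were lower, with a median of -1.05. Bcl6, a marker on the first list, was itself used for the sort through its reporter. Of 6 myeloid and dendritic cell markers 4 were tested, and 2 were higher in Fraction 6 and 0 lower: Itgam by 0.93 and Emr1 by 0.90. Cd68, the most abundant of the 6 markers in these gates, did not pass. It was at 10.3, 11.0 and 13.5 FPKM in Fraction 5 and at 8.08 and 11.9 in Fraction 6. The 6 markers summed to 11.1 to 13.9 FPKM in Fraction 5, 16.1 in both libraries of Fraction 6 and 22.2 to 31.4 in Fraction 7, with Csf1r at most 0.528 and Itgax at most 0.980 FPKM in every library. Itgam was at most 0.0828 FPKM in Fraction 5, 0.649 and 1.53 in Fraction 6 and 12.8, 8.22 and 12.5 in Fraction 7. The part of these transcripts in the results was not tested.

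Fraction 7 against Fraction 6 compares mature memory cells with cells called pre-memory, which differ in the gate for Efnb1. Every one of the 8 genes had a lower mean in Fraction 7, and 5 passed. Neil1 changed to 41.5 ± 1.13 (SD, n = 3) from 100.01 ± 15.5 FPKM (SD, n = 2), by -1.24 ± 0.15 SE (limma, adjusted p = 4.68e-05). Ung changed by -0.66 ± 0.13 SE (limma, adjusted p = 0.00253) and Msh6 by -0.63 ± 0.11 SE (limma, adjusted p = 0.00125). Apex2 stood at 2.48 ± 0.244 against 4.71 ± 1.74 FPKM (-0.68 ± 0.19 SE, limma, adjusted p = 0.019). Polh changed by -0.49 ± 0.16 SE (limma, adjusted p = 0.0431).

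The changes of Apex1, Exo1 and Trex1 missed the threshold (limma, adjusted p = 0.0752, 0.0713 and 0.0772), and that of Exo1 passed after quantile normalization (adjusted p = 0.0445). With a pseudocount of 0.1 the change of Exo1 was -1.17 in place of -0.47 and passed (limma, adjusted p = 0.0138), and by means Fraction 6 was 2.46 times Fraction 7 for Exo1 and 2.41 times for Neil1. Exo1 was under 1 FPKM in every library of both gates and passed the filter only through the other gates. Its passes under these alternatives and its ratio of means therefore rest on values near the floor. The 5 of 8 genes lower stand beside 13.9% of all genes tested, and the split of 830 higher and 1563 lower became 1205 and 1470 after quantile normalization. Plasma cell markers moved with this comparison: 5 of 6 were higher in Fraction 7, and their sum was 321 to 601 FPKM against 249 and 257 in Fraction 6. Fraction 7 library 1 held such transcripts too, with Tnfrsf17 at 3.02 and Prdm1 at 1.37 FPKM. In Fraction 6 these were at most 0.190 and 0.397 FPKM. Leaving out Fraction 7 libraries 2 and 3 therefore does not remove all plasma cell transcripts. Without Fraction 7 libraries 2 and 3, the libraries with Sdc1 above 4 FPKM, Neil1 (-1.21), Ung (-0.84) and Msh6 (-0.59) still passed, while Polh (adjusted p = 0.365) and Apex2 (adjusted p = 0.167) did not. Fits that left out 1 library also lost Polh in 4 of 5 and Apex2 in 2 of 5, with an adjusted p of up to 0.245 and 0.266, and kept Neil1, Ung and Msh6 in all 5.

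Fraction 7 against LZ spans the whole range from light zone to mature memory. All 8 genes were lower in Fraction 7, beside 38.0% of all genes tested. Neil1 changed by -2.44 ± 0.13 SE (limma, adjusted p = 2.37e-09), Ung by -2.41 ± 0.12 SE (limma, adjusted p = 8.82e-10) and Exo1 by -2.37 ± 0.15 SE (limma, adjusted p = 1.46e-08). With a pseudocount of 0.1 the change of Exo1, which was under 1 FPKM in every library of Fraction 7, was -3.83. By means, LZ was 17.03 times Fraction 7 for Exo1, 6.52 times for Ung and 5.58 times for Neil1. Polh changed by -1.90 and Msh6 by -1.87, followed by Apex1 (-1.38), Apex2 (-1.30) and Trex1 (-0.66, limma, adjusted p = 0.00654). The median change of all genes was -0.10, and quantile normalization moved it to 0.02 and turned 2718 higher and 4279 lower genes into 3464 and 3467. After it all 8 genes still passed, with changes from -2.44 for Exo1 to -0.44 for Trex1. The myeloid and dendritic markers Itgam (3.30) and Emr1 (1.20) were higher in Fraction 7, and 0 of the 4 tested were lower. Cd68 did not pass, at 6.51, 7.94 and 13.5 FPKM in Fraction 7 and 12.8, 13.5 and 9.66 in LZ. Without Fraction 7 libraries 2 and 3, Trex1 no longer passed (adjusted p = 0.0603).

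**Figure D3:**
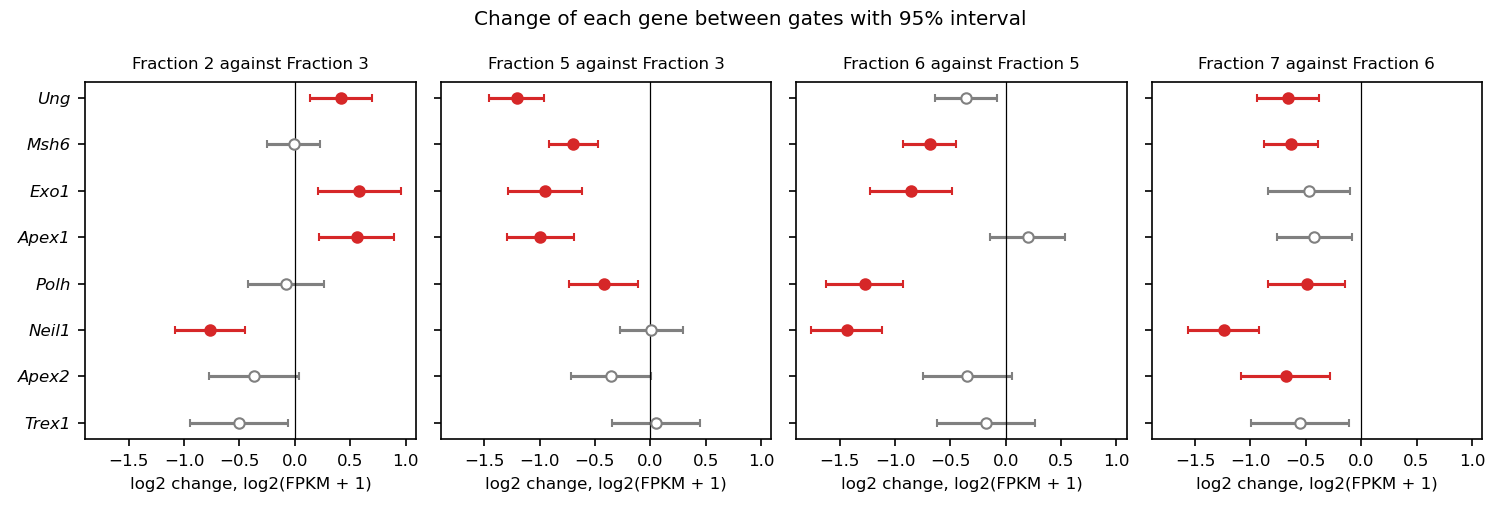
Change of each of the 8 genes on the log2(FPKM + 1) scale (horizontal axis) in 4 comparisons of gates, with 95% intervals; filled red points passed an adjusted p of 0.05 over all genes and open grey points did not. Ung and Apex1 changed by -1.21 and -0.99 in Fraction 5 against Fraction 3, and Neil1 and Polh by -1.44 and -1.27 in Fraction 6 against Fraction 5, while the scale compresses the steps of the low gene Exo1.

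The wider repair pathways were described with lists that leave out the 8 genes. Over 80 tested genes of 6 repair lists, 38 were lower and 1 higher in Fraction 5 against Fraction 3, beside 19.5% lower and 9.99% higher over all genes tested, with a median change of -0.26 where all genes had -0.03. In Fraction 6 against Fraction 5, 34 were lower and 2 higher (median -0.24), beside 10.4% and 7.07% over all genes. In Fraction 7 against LZ 58 were lower and 5 higher (median -0.66), beside 38.0% and 24.1%. In Fraction 2 against Fraction 3, 7 were higher and 7 lower, near the 9.17% and 6.45% over all genes. Many of these genes are also known to serve DNA replication, and the S phase list had 23 of 24 lower in Fraction 7 against LZ, with a median of -2.75. How far cell division enters the counts of the repair lists was not tested.

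Of 18 other base excision repair genes tested, 7 were lower and 0 higher in Fraction 5 against Fraction 3 and 8 were lower and 0 higher in Fraction 6 against Fraction 5. The DNA ligase gene Lig1 (84.4 ± 4.66 against 35.2 ± 2.68 FPKM, change -1.24) and the flap nuclease gene Fen1 (59.2 ± 3.60 against 29.7 ± 4.00 FPKM, change -0.98) were lower in Fraction 5 than in Fraction 3. Mbd4, which encodes a glycosylase for thymine and uracil opposite guanine, was at 51.8 ± 1.07 against 52.5 ± 3.33 FPKM (limma, adjusted p = 0.889), and was lower by 0.92 in Fraction 6 than in Fraction 5. The scaffold gene Xrcc1 was at 75.9 ± 2.75 against 81.9 ± 3.68 FPKM (limma, adjusted p = 0.377), and was lower by 0.65 in Fraction 6 than in Fraction 5.

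Mismatch repair genes were lower in Fraction 5 than in Fraction 3 for 12 of 16 and higher for 1, and 15 were lower in Fraction 7 than in LZ. The sliding clamp gene Pcna changed by -1.19, the clamp loader gene Rfc3 by -1.03 and the polymerase delta gene Pold1 by -0.79 between Fraction 3 and Fraction 5. Rfc1, the large clamp loader subunit gene, changed by -0.25 there. It changed by -0.89 in Fraction 6 against Fraction 5 and by -1.30 in Fraction 7 against Fraction 6. Of 14 translesion synthesis and damage tolerance genes, 4 were lower and 0 higher in Fraction 5 against Fraction 3, where 19.5% of all genes were lower, and their median change was -0.01. Polq (-0.90) and the deubiquitinase gene Usp1 (-0.80) were among these 4. Rev1, which encodes another translesion polymerase, changed by -0.18 there (limma, adjusted p = 0.223) and by -1.28 between Fraction 6 and Fraction 7.

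End joining and switch repair genes were lower in Fraction 5 than in Fraction 3 for 8 of 18 and higher for 0. The histone variant gene H2afx, whose product marks DNA breaks, changed by -0.55 from Fraction 3 to Fraction 5 and by -1.83 from Fraction 5 to Fraction 6. Among 9 genes of the deaminase and its targeting factors, 4 were lower in Fraction 5 against Fraction 3 and 5 in Fraction 6 against Fraction 5. The single-strand DNA binding genes Rpa2 (-0.91) and Rpa3 (-0.66) and the RNA exosome gene Exosc3 (-0.62) were among those lower in Fraction 5. Of 5 genes of nucleic acid degradation, the RNase H2 subunit genes Rnaseh2b (-0.87), Rnaseh2a (-0.68) and Rnaseh2c (-0.41) were lower in Fraction 5. Samhd1, which encodes a nucleotide hydrolase, was at 191 ± 7.70 against 199 ± 13.7 FPKM (limma, adjusted p = 0.625).

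**Figure D4:**
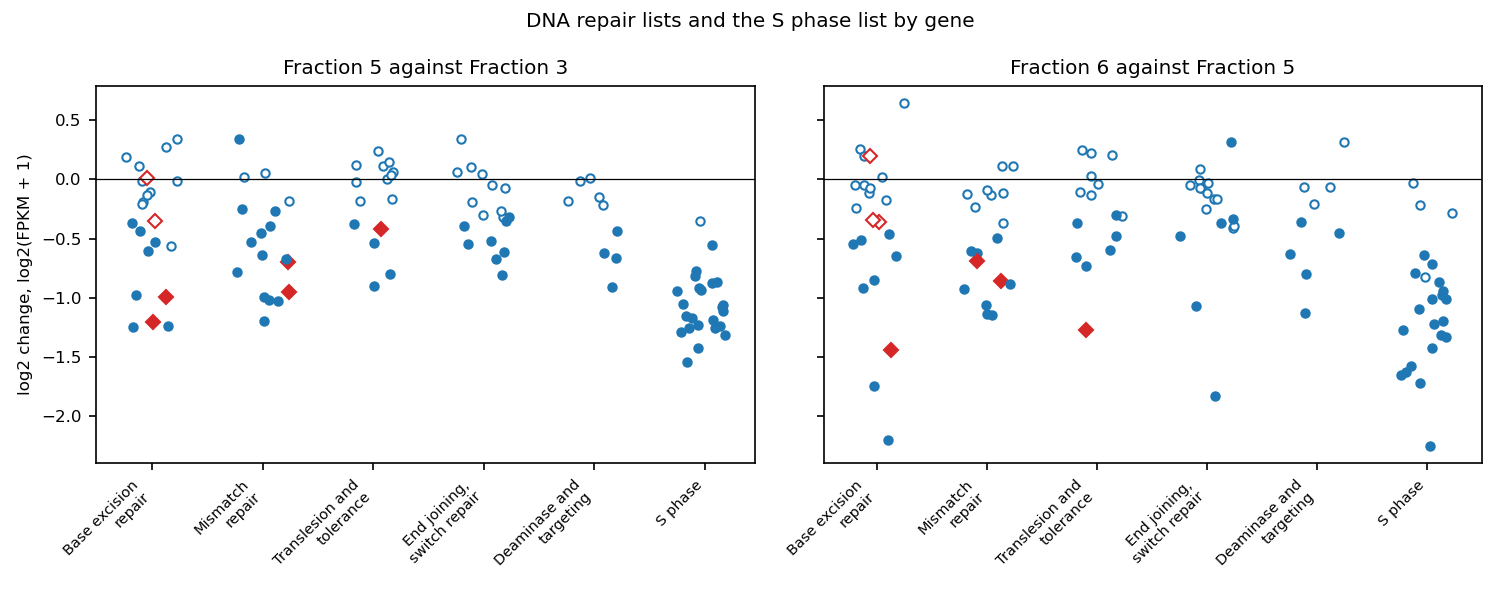
Change of each gene on the log2(FPKM + 1) scale (vertical axis) in Fraction 5 against Fraction 3 and in Fraction 6 against Fraction 5, by repair list and for the S phase list; red diamonds are 7 of the 8 genes (Trex1, on the list of nucleic acid degradation, is not drawn), blue circles the other genes of a list, and filled symbols passed an adjusted p of 0.05. In Fraction 5 against Fraction 3, 23 of 24 S phase genes and 12 of 16 other mismatch repair genes were lower. So were 8 of 18 end joining and switch repair genes and 4 of 9 deaminase and targeting genes. Of other base excision repair genes 7 of 18 were lower, and of other translesion and tolerance genes 4 of 14, beside 19.5% of all genes tested.

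For each of the 8 genes, the genes with the most similar pattern were found by Pearson's r of log2(FPKM + 1) over the 16 libraries, among 7917 or 7918 genes with a mean of at least 5 FPKM. These libraries share 6 gates, whose means set most of each r, so the values describe likeness only. Ung was most like Ddx39 (r = 0.994), Srsf2 (0.993) and Mthfd2 (0.993). Msh6 was most like the clamp loader gene Rfc3 (r = 0.997), Mns1 (0.994) and 5730590G19Rik (0.993), and Exo1 like Rbbp7 (r = 0.994), Ran (0.994) and Cdca7 (0.992). Polh was most like the mitotic kinesin gene Kif2c (r = 0.990), Top1 (0.989) and Psip1 (0.989).

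Apex1 was most like genes of mitochondria and nucleotide pools, Tomm40 (r = 0.981), Dctpp1 (0.977) and Mrps28 (0.976). Ildr1 (r = 0.982) and Arpc5l (0.982) were among the 3 genes most like Neil1. Apex2 had lower values with St3gal5 (r = 0.961), Kctd1 (0.952) and Atxn1l (0.947), and Trex1 the lowest, with Gm16515 (r = 0.905), Rhog (0.903) and Cdk9 (0.878). None of the 8 genes was among the 3 most like another of them.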

How the data were processed

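Per the submitters' processing notes, TopHat2 2.0.8, Cufflinks 2.1.1 and build mm9 were used, and the authors deposited 1 table of FPKM for 16 libraries; the gene annotation is not given in the sources used here. Libraries came from TRIzol RNA and a NEBNext Ultra kit, per the labels. Of 23235 rows, 1 without a gene name was left out, and groups were taken from the sample titles. Tests covered the 11266 genes that reached 1 FPKM in 2 or more libraries. limma 3.58.1 in R 4.3.3 fitted log2(FPKM + 1) in 1 model of 6 group means, with a variance trend and equal weights, and p-values were adjusted by Benjamini-Hochberg over all genes within a comparison. The fit was tested on simulated data. FPKM are not counts, so no count model was used.

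Levels and figures were made in Python 3.11.15 (matplotlib 3.10.9, numpy 2.4.6, pandas 2.3.3). Members and lists were chosen with earlier results of these data known. Named genes are the 8 members, up to 4 other genes of each list by smallest p of the F test, and the 3 most alike genes; some genes that this rule gives are not reported here. As alternatives, values were rescaled by quantiles or median ratios, the pseudocount was set to 0.1, and the filter was dropped or raised to 5 FPKM. Further fits used the compared groups alone, array weights, or a replicate block, or left out single libraries or Fraction 7 libraries 2 and 3 together.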

Additional observations from a re-analysis of the deposited data

How the results depend on the processing

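For Fraction 2 against Fraction 3 the 4 calls among the 8 genes became 2 with a pseudocount of 0.1, 1 without a filter and 1 to 2 with 1 library left out, and the 1760 genes called over the whole table became 1108 in a fit to these groups alone and 660 to 1411 with 1 library left out. For Fraction 7 against Fraction 6 the 5 calls became 3 in a fit to these groups alone, 3 without Fraction 7 libraries 2 and 3 and 3 to 6 with 1 library left out, and the 2393 genes became 1248, 1589 and 1334 to 2491. For Fraction 6 against Fraction 5 the 1968 genes became 1152 to 1817 with 1 library left out. Where a fit has fewer libraries or tests more genes, its construction can lower the count; the other causes were not tested. Where 1 library stayed in a group, its spread was taken from the other groups.

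Signs turned only for changes that had not passed, in fits that left out 1 library: Msh6 in Fraction 2 against Fraction 3 (-0.070 to 0.046), Neil1 (-0.12 to 0.12) and Trex1 (-0.073 to 0.23) in Fraction 5 against Fraction 3, Apex2 in Fraction 5 against Fraction 2 (-0.23 to 0.26) and Trex1 in Fraction 6 against Fraction 5 (-0.38 to 0.028). Of 256 changes of single genes from fits that left out 1 library 212 kept direction and call, and of 400 from other settings 372 did.

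Replicate numbers gave no sign of pairing the libraries: deviations of same-numbered libraries of different groups correlated between -0.18 and 0.16 (36 pairs), and 3 of 16 libraries correlated best with their own number. This check rests on groups of 2 or 3 libraries and could miss a weak effect of a shared pool or day. With the replicate number as a block, 3 of the 8 genes were called in Fraction 2 against Fraction 3, 5 in Fraction 5 against Fraction 3, 5 in Fraction 5 against Fraction 2, 4 in Fraction 6 against Fraction 5, 4 in Fraction 7 against Fraction 6 and 8 in Fraction 7 against LZ. Without the block, these counts were 4, 5, 6, 4, 5 and 8. They stand beside 15.6%, 29.5%, 43.7%, 17.5%, 21.2% and 62.1% of all genes tested, called in either direction. The shares over all genes with the block are not given here. Low level limits the precision of Exo1, which was under 1 FPKM in every library of Fractions 6 and 7.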
